A study of Homo sapiens with 6 samples.

Results

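The 9 genes described here, CLDN1, CLDN4, CLDN7, OCLN, MARVELD2, F11R, TJP1, TJP3 and CGN, encode core proteins of the epithelial tight junction. They were chosen by name, from what their products are known to do, out of 26255 gene symbols in each library. Earlier results of these data were known when the choice was made. BxPC-3, an established human pancreatic cancer cell line, was studied in 3 groups of 2 RNA sequencing libraries: Parent cells without treatment, cells given the negative control NC-1, and cells given the microRNA miR-4711-5p. Transfected cells were compared 36 h after transfection, and the Parent cells received neither RNA. The study sequenced RNA from these cells to look for candidate target genes of the microRNA. One line, one time point and one control RNA were sampled, and the labels give neither the sequence of NC-1 nor whether libraries came from separate cultures, so that all p-values here measure the spread between these libraries, which may be technical. All 9 genes were present in every library.

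Tight junctions seal the space between neighbouring epithelial cells near their apical side and limit the passage of ions and solutes. Claudins form the strands, and different claudins make the strands tighter or leakier to particular ions. Occludin and tricellulin, which share the MARVEL membrane domain, join these strands, and junctional adhesion molecule A is an adhesion receptor of the immunoglobulin superfamily. Beneath the membrane, the zonula occludens scaffolds and cingulin link these proteins to one another and to the actin and microtubule cytoskeleton. The duct cells of the pancreas, whose adenocarcinoma BxPC-3 comes from, carry such junctions.

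A microRNA pairs with messenger RNAs mainly through its seed, bases 2 to 8 from its 5′ end. The mature sequence of hsa-miR-4711-5p from RefSeq, the RNA given to the treated cells, is shown because its seed (capitals) sets the letters searched for in the 9 genes:
hsa-miR-4711-5p: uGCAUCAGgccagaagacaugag

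The sites searched were CTGATGCA (8mer), CTGATGC (7mer-m8) and TGATGCA (7mer-A1) on the transcribed strand of annotated 3′ UTRs, where a match to the 8mer counted once. Of the 9 genes, 2 had a site in their longest 3′ UTR, F11R and OCLN, and the same 2 had one when every annotated 3′ UTR was read. Among 11185 tested genes with a 3′ UTR, 18.4% had a site. The 2 sites, both 7mer-m8 (capitals), are shown with flanking bases, read 5′ to 3′ on the transcribed strand from GRCh37, the build also called hg19:
F11R: acagggtgaagCTGATGCtgtacttgggg
OCLN: aacatagaaggCTGATGCcaagttgtttg

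The F11R site (GRCh37 chr1:160967241-160967247, minus strand) started at position 1414 of a 3′ UTR of 3660 bases and was in 2 of 3 annotated transcripts. The OCLN site (chr5:68849503-68849509, plus strand) started at base 5 after the stop codon, in a 3′ UTR of 4433 bases, and was in 9 of 10 transcripts. CLDN1, CLDN4, MARVELD2, TJP1, TJP3 and CGN had none of these letters in a 3′ UTR. CLDN7 had none there either, with a 7mer-m8 in the 5′ UTR of 1 of its 7 transcripts. A match is a description of the sequence and not a shown target site.

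The values were FPKM, the number of fragments scaled to transcript length and library size by the authors. Read totals were not in these files. The smallest steps in FPKM put the scaling of the libraries between 0.753 and 1.21 times that of the first Parent library, with 29.0% to 36.8% of low genes on the step. Median-of-ratios size factors were 1.006 to 1.007 in all 6 libraries. The values thus already shared a median-of-ratios scale, and the steps need not follow the reads. Sums of FPKM were highest in Parent (543074 and 550772), followed by NC-1 (515348 and 515688) and miR-4711-5p (493145 and 499659). When every library was set to the same sum, the median log2 difference of all 12040 tested genes moved by 0.13 for miR-4711-5p against Parent, 0.079 for NC-1 against Parent and 0.052 for miR-4711-5p against NC-1, and the share of calls that were higher moved from 43.1% to 69.2%, from 44.4% to 70.1% and from 46.5% to 58.3%, respectively. Where that scale changed a call of miR-4711-5p against a reference, this is said beside the gene. The common sum was above that of every library, so the pseudocount of 1 weighed less on that scale. For low genes such as OCLN, CGNL1 and CLDN9, the equal-sum values therefore mix the scaling with the weight of the pseudocount. Epithelial markers (KRT7, KRT8, KRT18, KRT19, EPCAM, MUC1 and SOX9, all 7 over 1 FPKM) summed to between 5172 and 6169 FPKM. Single markers moved within that sum. In the limma test described below (adjusted p under 0.05), 2 of the 7 rose and 2 fell with miR-4711-5p against Parent, beside 43.4% of all tested genes called. Among them were KRT19 (0.553 times), MUC1 (0.497 times) and SOX9 (2.18 times). Against NC-1, 4 rose and 3 fell, beside 39.6% of all tested genes called. The acinar list, the exocrine cells of the pancreas, summed to between 5.00 and 7.50 FPKM, with PRSS1 at 3.68 times and CEL at 0.572 times Parent in miR-4711-5p, fibroblast markers to between 1.31 and 2.47 and leukocyte markers to between 0.210 and 0.899. Endothelial markers summed to 1.42 and 1.55 in Parent, 3.37 and 3.56 in NC-1 and 0.660 and 0.887 in miR-4711-5p, most of it from CDH5, and the part of these marker changes in the results was not tested.

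In Parent cells, CLDN4 (115 ± 6.90 FPKM, mean ± SD, n = 2) and CLDN7 (114 ± 3.25) were the highest of the 9 genes, and their libraries overlapped. They were followed by F11R (76.96 ± 0.692), CLDN1 (67.8 ± 2.46) and TJP1 (32.8 ± 0.686). CGN (7.61 ± 0.791) and MARVELD2 (7.47 ± 1.02) also overlapped, and TJP3 (3.24 ± 0.565) and OCLN (2.52 ± 0.0755) were the lowest. In miR-4711-5p-treated cells CLDN4 was alone at the top at 190.4 ± 1.72 FPKM, CLDN1 (84.1 ± 2.44) was above F11R (66.1 ± 0.450), and OCLN (4.59 ± 0.600) was above TJP3 (3.02 ± 0.0112).

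**Figure D1:**
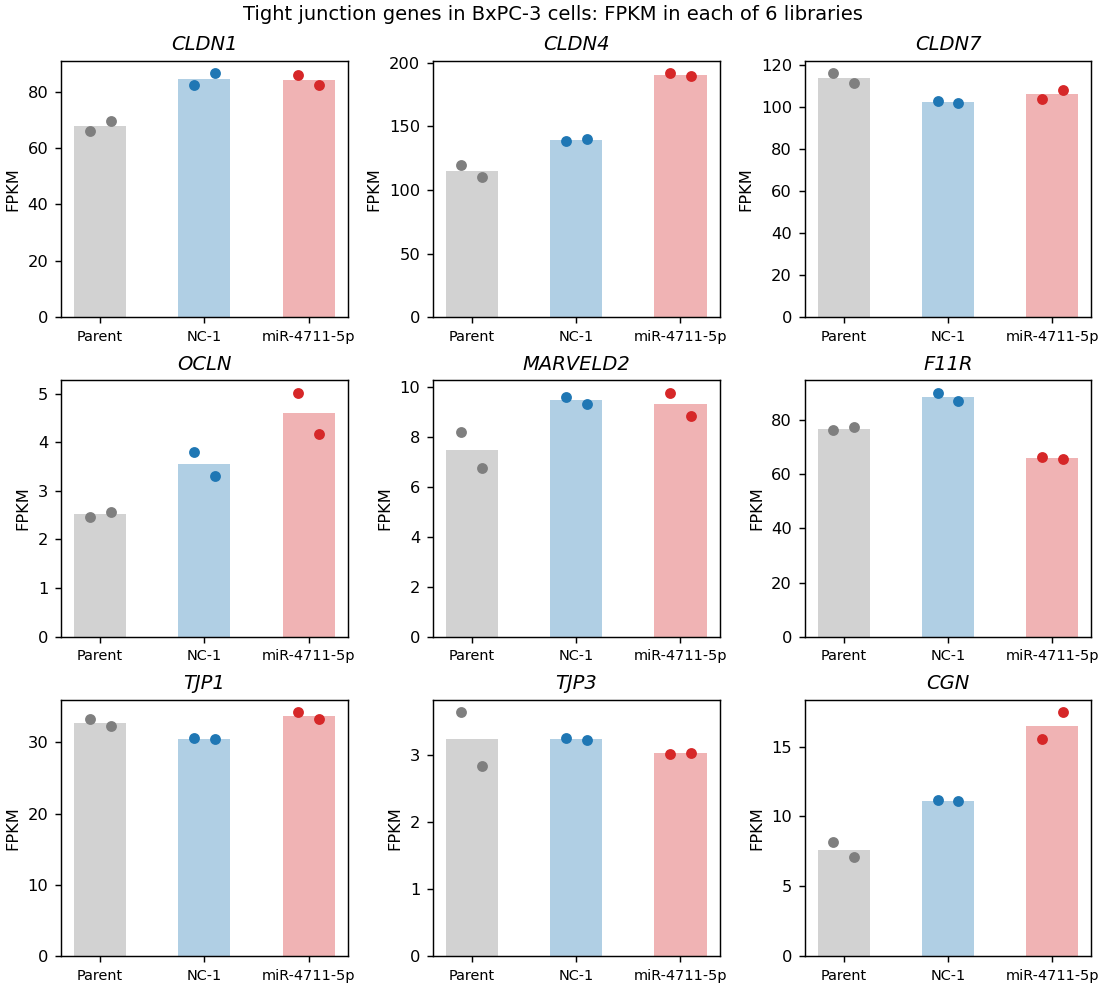
FPKM (linear axes from 0) of the 9 tight junction genes in Parent, NC-1 and miR-4711-5p libraries. Points are the 2 libraries of a group and bars their mean; both miR-4711-5p points of CLDN4, OCLN, TJP1 and CGN lie above all 4 control points, and both of F11R lie below them.

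In a limma fit of log2(FPKM + 1), with p-values adjusted by Benjamini-Hochberg over all 12040 genes, 6 of the 9 genes passed the threshold (adjusted p under 0.05) in miR-4711-5p against Parent. CLDN1, CLDN4, OCLN, MARVELD2 and CGN rose and F11R fell, 5 higher and 1 lower, where 43.4% of all tested genes were called (18.7% higher and 24.7% lower). Against NC-1, 4 passed: CLDN4, TJP1 and CGN rose and F11R fell, beside 39.6% of all tested genes (18.4% higher and 21.2% lower). NC-1 itself differed from Parent in 7 of the 9, CLDN1, CLDN4, OCLN, MARVELD2, F11R and CGN higher and CLDN7 lower, beside 27.2% of all tested genes. The median log2 difference of the 9 genes was 0.29 against Parent, 0.049 against NC-1 and 0.28 for NC-1 against Parent, where the medians of all tested genes were -0.013, 0.0038 and -0.010. The 3 comparisons share libraries and are therefore given side by side. With libraries set to equal sums, 6 of the 9 were higher and 0 lower against Parent, 4 higher and 1 lower against NC-1, and 6 higher and 0 lower in NC-1 against Parent. Of all 12040 tested genes, 4014 were then higher and 1783 lower against Parent. The counts were 2916 and 2082 against NC-1, and 2349 and 1002 in NC-1 against Parent. With a change of at least 1.5-fold required as well, 3, 0 and 0 of the 9 were called in the 3 comparisons, beside 9.24%, 8.11% and 2.48% of all tested genes. The count of 7 in NC-1 against Parent fell to 4, 4, 3 and 4 when Parent replicate 1, Parent replicate 2, NC-1 replicate 1 or NC-1 replicate 2 was left out. CLDN4 and CGN were higher and F11R was lower against both references, 3 of the 9 genes, and 25.5% of all tested genes were called in the same direction against both. Both miR-4711-5p libraries were above all 4 control libraries in 4 of the 9 genes and below them in 1, beside 23.8% and 26.3% of all tested genes.

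**Figure D2:**
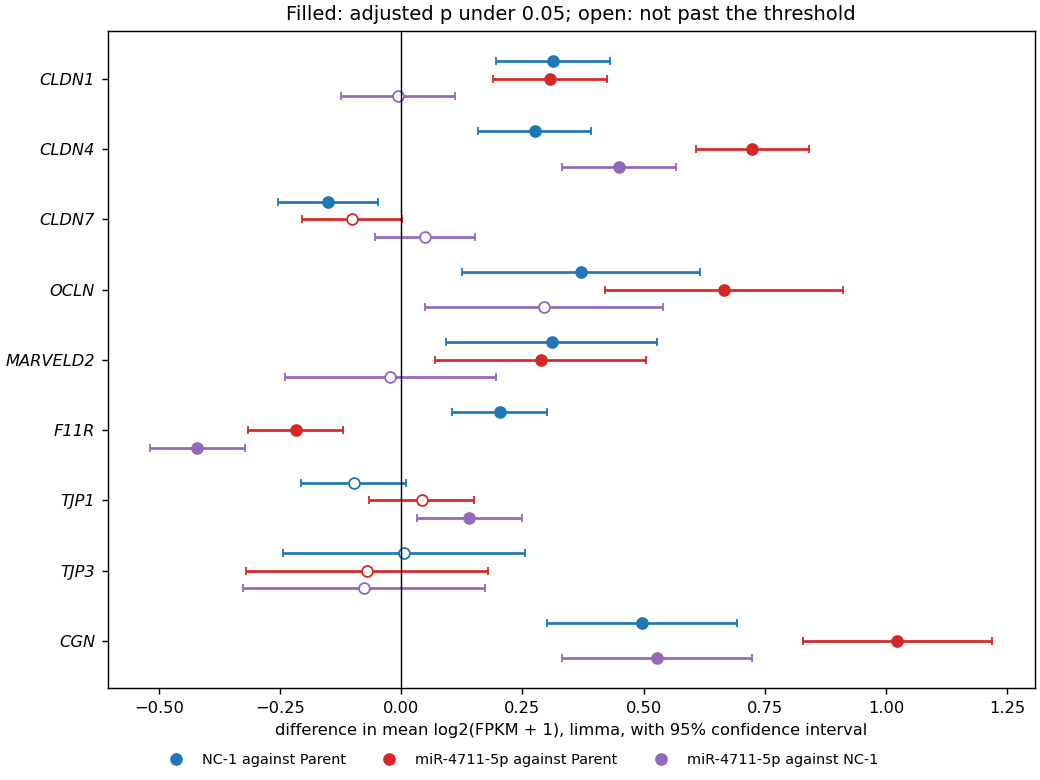
Difference in mean log2(FPKM + 1) of the 9 genes in each comparison, with the 95% confidence interval from limma; filled points passed an adjusted p of 0.05. CGN and CLDN4 lie to the right of 0 in all 3 comparisons, and F11R is to the right for NC-1 against Parent and to the left for both miR-4711-5p comparisons (its change against Parent was not called when libraries were set to equal sums).

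CLDN4, a claudin that tightens the barrier to cations in several epithelia (GRCh37 chr7:73213872-73247020, plus strand), rose in all 3 comparisons. Its level was 119.8 and 110.04 FPKM in Parent, 138 and 139.8 in NC-1 and 192 and 189 in miR-4711-5p. The 3 groups did not overlap, and both treated libraries were at the top. Its mean in miR-4711-5p-treated cells was 1.66 times that of Parent (log2 difference 0.72, SE 0.05, limma adjusted p = 5.04e-05) and 1.37 times that of NC-1 (log2 difference 0.45, adjusted p = 0.000524). NC-1 was 1.21 times Parent (0.28, adjusted p = 0.00863). All 3 calls of CLDN4 held in each of the 15 alternative settings.

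CLDN1, a barrier claudin of many epithelia (chr3:190023496-190040235, minus strand), rose in both treated groups. It stood at 66.0 and 69.5 FPKM in Parent, 82.4 and 86.5 in NC-1 and 85.8 and 82.3 in miR-4711-5p. The NC-1 and miR-4711-5p libraries overlapped, and all 4 were above Parent. It was 1.24 times Parent with miR-4711-5p (log2 difference 0.31, limma adjusted p = 0.00259) and 1.25 times Parent with NC-1 (0.31, adjusted p = 0.00586). The difference between miR-4711-5p and NC-1 was -0.0060, with a 95% confidence interval from -0.12 to 0.11 (adjusted p = 0.936).

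CLDN7, a claudin found also along the lateral membrane of epithelial cells (chr17:7163222-7167302, minus strand), was at 116 and 111 FPKM in Parent, 103 and 102 in NC-1 and 104 and 108 in miR-4711-5p. The Parent libraries were the highest 2, and the NC-1 libraries the lowest. It fell in NC-1 against Parent (0.900 times, log2 difference -0.15, limma adjusted p = 0.0429), a call that 11 of 15 alternatives did not give (adjusted p up to 0.260, and 0.0677 with the replicate numbers as a block), among them equal sums (-0.066). The 95% confidence interval of its difference was -0.20 to 0.00 in miR-4711-5p against Parent and -0.05 to 0.15 against NC-1, and neither passed the threshold. Of its exon bases, 269 of 2492 lie in another annotated gene on the same strand, and a pseudogene, CLDN7P1, is annotated, so its count is uncertain to that extent.

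Together these 3 claudins made up between 91.8% and 93.5% of the summed FPKM of the 23 claudin genes in the files, 16 of which were under a mean of 1 FPKM. The sum was 322.7 and 312 FPKM in Parent, 351 and 358 in NC-1, and 412 and 409 in miR-4711-5p. CLDN4 held 37.1% and 35.3% of the sum in Parent, 39.5% and 39.1% in NC-1 and 46.5% and 46.2% in miR-4711-5p. CLDN7 held 36.0% and 35.7%, 29.3% and 28.5%, and 25.2% and 26.4% in the same order. CLDN1 held between 20.1% and 24.2% in all libraries. CLDN4 and CLDN7 were thus at nearly the same level in Parent cells (ratio of CLDN4 to CLDN7 1.03 and 0.988), whereas CLDN4 was above CLDN7 with a ratio of 1.35 and 1.37 in NC-1 and 1.85 and 1.75 in miR-4711-5p. These ratios are taken within a library and do not depend on its scaling. In whole cultures, fewer cells of a kind and less RNA per cell cannot be told apart.

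**Figure D3:**
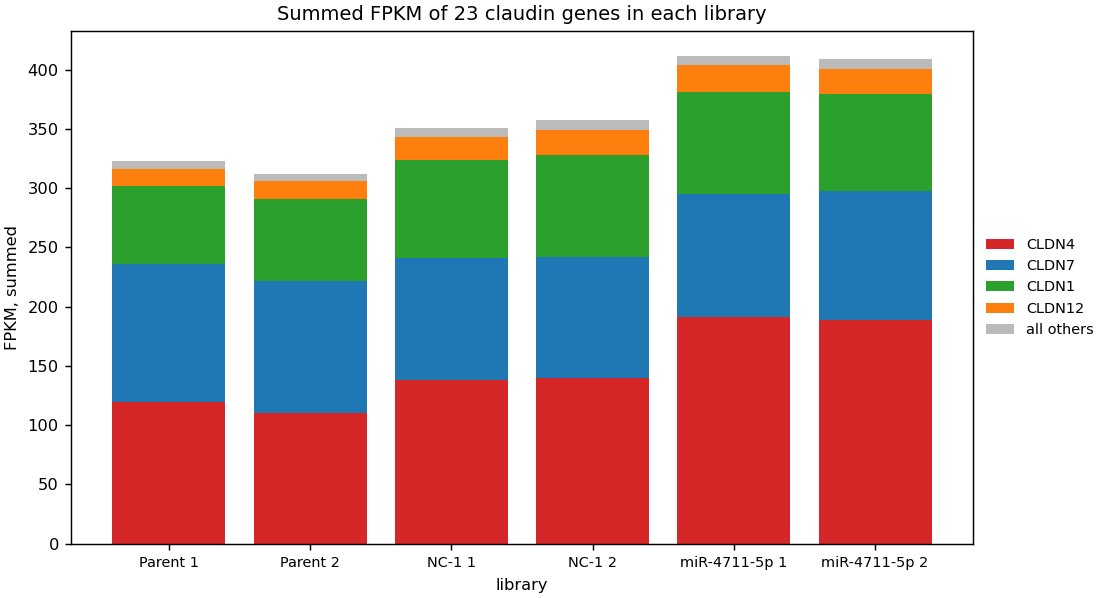
Summed FPKM of 23 claudin genes in each library (linear axis from 0), split into CLDN4, CLDN7, CLDN1, CLDN12 and all others. The sum is between 312 and 322.7 FPKM in Parent and 409 and 412 in miR-4711-5p, and the CLDN4 part is the largest in both miR-4711-5p libraries.

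CLDN12, the only other claudin with a mean of at least 10 FPKM, was at 14.5 ± 0.779 FPKM in Parent, 20.5 ± 0.841 in NC-1 and 21.9 ± 1.17 in miR-4711-5p (n = 2). It rose in both treated groups against Parent (log2 difference 0.56, limma adjusted p = 0.000540 with miR-4711-5p, and 0.47, adjusted p = 0.00348 with NC-1), and the difference between miR-4711-5p and NC-1 was 0.09 (adjusted p = 0.298). CLDN9 was low throughout (1.005 ± 0.0513 FPKM in Parent, 0.891 ± 0.0262 in NC-1 and 1.56 ± 0.115 in miR-4711-5p) and rose against both (0.35, adjusted p = 0.0445, and 0.44, adjusted p = 0.0223). Of 14 alternatives, 6 did not give the call of CLDN9 against Parent and 2 did not give that against NC-1.

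OCLN encodes occludin, the first transmembrane protein found in tight junctions (chr5:68788119-68853931, plus strand). Its level was low: 2.46 and 2.57 FPKM in Parent, 3.80 and 3.30 in NC-1 and 5.02 and 4.17 in miR-4711-5p. The groups did not overlap, and the treated libraries were the highest. Its mean was 1.83 times that of Parent with miR-4711-5p (log2 difference 0.67, SE 0.10, limma adjusted p = 0.00222), and this call held in all 14 alternatives that tested the gene. NC-1 was 1.41 times Parent (0.37, adjusted p = 0.0383), a call absent from 7 of 14 alternatives (adjusted p up to 0.166). Against NC-1, miR-4711-5p differed by 0.30 with an interval from 0.05 to 0.54, which did not pass the threshold after adjustment (adjusted p = 0.0592, and 0.0403 to 0.297 over the alternatives). Equal sums was the one alternative that called it (0.38). The seed match of OCLN started at base 5 after its stop codon, and OCLN was not lower in either miR-4711-5p library than in any control library. Whether this site acts was not tested. The annotation also lists an unprocessed pseudogene, OCLNP1, so reads of the pair may be shared.

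MARVELD2 encodes tricellulin, which is concentrated where 3 cells meet (chr5:68710892-68740157, plus strand). It was at 8.20 and 6.75 FPKM in Parent, 9.62 and 9.32 in NC-1 and 9.78 and 8.86 in miR-4711-5p. All 4 treated libraries were above both Parent libraries, which were themselves far apart, and the miR-4711-5p libraries lay on either side of NC-1. It rose against Parent with miR-4711-5p (1.25 times, log2 difference 0.29, limma adjusted p = 0.0407) and with NC-1 (1.27 times, 0.31, adjusted p = 0.0454). Each call was absent from 8 of 15 alternatives, with adjusted p up to 0.219 and 0.174, and without Parent replicate 2 the differences were 0.16 and 0.19. The difference between miR-4711-5p and NC-1 was -0.022, with an interval from -0.24 to 0.20.

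F11R encodes junctional adhesion molecule A, which helps to set up polarity and is also carried by leukocytes and platelets (chr1:160965001-160991133, minus strand). It was the only one of the 9 genes called lower with miR-4711-5p in either comparison. Its level was 76.5 and 77.5 FPKM in Parent, 90.3 and 87.3 in NC-1 and 66.4 and 65.8 in miR-4711-5p. The 3 groups did not overlap, with NC-1 highest and miR-4711-5p lowest. It was 0.744 times NC-1 (log2 difference -0.42, 95% confidence interval -0.52 to -0.32, limma adjusted p = 0.000326), and this call held in all 15 alternatives. Against Parent it was 0.858 times (-0.22, adjusted p = 0.00539), and with libraries set to equal sums this difference was -0.080 and was not called (adjusted p from 0.00458 to 0.168 over the alternatives). NC-1 was 1.15 times Parent (0.20, adjusted p = 0.0134), a call absent without Parent replicate 1 and without NC-1 replicate 1 (adjusted p up to 0.0631). F11R and OCLN, the 2 genes with a 7mer-m8 in a 3′ UTR, differed in direction against Parent, and the part of these sites was not tested. Of the exon bases of F11R, 1853 of 5061 lie in another annotated protein-coding gene on the same strand, and how the authors' counting divided such reads was not given in the sources used here.

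CGN encodes cingulin, a plaque protein that binds the zonula occludens scaffolds and actin (chr1:151482986-151511168, plus strand). Its log2 difference was the largest of the 9 genes in all 3 comparisons at a pseudocount of 1, while at a pseudocount of 5 CLDN4 (0.44) was above CGN (0.41) against NC-1. Its level was 8.17 and 7.05 FPKM in Parent, 11.2 and 11.1 in NC-1 and 15.5 and 17.5 in miR-4711-5p. The groups did not overlap and stepped up from Parent through NC-1 to miR-4711-5p. It was 2.17 times Parent (log2 difference 1.02, SE 0.08, limma adjusted p = 0.000113) and 1.48 times NC-1 (0.53, adjusted p = 0.00254), and NC-1 was 1.46 times Parent (0.50, adjusted p = 0.00683). All 3 calls of CGN held in each of the 15 alternatives.

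TJP1 encodes ZO-1, the scaffold that binds claudins, occludin and actin (chr15:29991571-30261118, minus strand). It was at 33.2 and 32.3 FPKM in Parent, 30.6 and 30.4 in NC-1 and 34.2 and 33.3 in miR-4711-5p. The groups differed little: Parent lay between the other two, and the lower miR-4711-5p library was just above the higher Parent library. It rose against NC-1 (1.11 times, log2 difference 0.14, limma adjusted p = 0.0461), a call that 7 of 15 alternatives did not give (0.0148 to 0.203, and 0.0615 with the replicate numbers as a block). Against Parent the difference was 0.043 with an interval from -0.07 to 0.15 (adjusted p = 0.486), and with libraries set to equal sums it was 0.18 and was called.

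TJP3 encodes ZO-3, a related scaffold found in epithelia (chr19:3708360-3750811, plus strand). It was at 3.64 and 2.84 FPKM in Parent, 3.25 and 3.23 in NC-1 and 3.01 and 3.03 in miR-4711-5p. The Parent libraries spanned all the others. None of its 3 comparisons passed the threshold in any setting, and at this low level the intervals were wide, from -0.32 to 0.18 against Parent and from -0.33 to 0.17 against NC-1.

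A wider list of 85 tight junction genes, with the other claudins, other membrane proteins, plaque scaffolds, polarity complexes and regulators, had 56 members tested and 29 under a mean of 1 FPKM. Against Parent, 13 of the 56 rose and 15 fell, with a median log2 difference of 0.014, beside 43.4% of all tested genes called. Against NC-1, 12 rose and 13 fell (median 0.0010, beside 39.6%), and in NC-1 against Parent 11 rose and 5 fell (median 0.041, beside 27.2%). The same shares stand beside each of the role lists that follow. With libraries set to equal sums, the split against Parent became 23 higher and 6 lower. That against NC-1 became 15 higher and 11 lower, and that of NC-1 against Parent 16 higher and 2 lower. Over all 12040 tested genes the equal-sum splits were 4014 and 1783, 2916 and 2082, and 2349 and 1002 in the same order. These stand beside the equal-sum counts of each list that follows. Leaving out Parent replicate 1 or either miR-4711-5p replicate lowered the count against Parent from 28 to 18. Against NC-1, leaving out NC-1 replicate 1, miR-4711-5p replicate 1 or miR-4711-5p replicate 2 lowered the count from 25 to 15, 11 and 13. In NC-1 against Parent, it fell from 16 to 5 and 10 without Parent replicate 1 or 2 and to 7 and 6 without NC-1 replicate 1 or 2.

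By role, 3 of 4 tested other claudins rose against Parent and 1 of 4 against NC-1, and none fell. Of 6 tested membrane proteins, 1 rose against NC-1 and none rose against Parent. Another 2 fell against both references, and with equal sums neither of these was called against Parent. They were CXADR, the coxsackievirus and adenovirus receptor (16.3 ± 0.299 FPKM in Parent, 21.0 ± 0.823 in NC-1 and 14.2 ± 0.580 in miR-4711-5p, n = 2), and CLMP, its relative (9.73 ± 0.239, 10.01 ± 0.0217 and 7.77 ± 0.432). CXADR fell by 0.53 on the log2 scale against NC-1 (limma adjusted p = 0.000438), in all 15 alternatives. Against Parent it fell by 0.19 (adjusted p = 0.0319), which 6 of 15 alternatives did not call (adjusted p up to 0.417, and 0.0502 with the replicate block). Like F11R, CXADR was higher in NC-1 than in Parent (0.34, adjusted p = 0.00639).

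Among 10 tested plaque scaffolds, 3 rose and 3 fell against Parent, and 2 rose and 3 fell against NC-1, and with equal sums the count against Parent was 4 higher and 1 lower. The angiomotin-like genes AMOTL1 and AMOTL2, whose products bind YAP and actin, went in opposite directions. AMOTL2 was at 21.7 and 20.2 FPKM in Parent, 28.2 and 28.9 in NC-1 and 44.8 and 42.0 in miR-4711-5p, and rose against both, by a log2 difference of 1.02 from Parent (limma adjusted p = 2.10e-05) and of 0.59 from NC-1 (adjusted p = 0.000293). NC-1 itself was above Parent for AMOTL2 (0.43, adjusted p = 0.00316). AMOTL1 was at 20.6 and 19.7 FPKM in Parent, 23.8 and 21.7 in NC-1 and 15.2 and 15.4 in miR-4711-5p, and fell by 0.38 (adjusted p = 0.00238) and 0.54 (adjusted p = 0.000520). These calls held in all 15 alternatives.

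CGNL1, which encodes paracingulin, the relative of CGN, was at 1.52 and 1.47 FPKM in Parent, 2.37 and 2.46 in NC-1 and 0.907 and 1.0002 in miR-4711-5p. All groups were separate, with miR-4711-5p lowest. It fell against NC-1 by 0.81 on the log2 scale (limma adjusted p = 0.00106) in all 14 alternatives, and against Parent by 0.35 (adjusted p = 0.0295), which 5 of 14 did not call, equal sums among them (-0.36). With miR-4711-5p the pair therefore went in opposite directions. In NC-1 against Parent both rose, CGNL1 by 0.45 (limma adjusted p = 0.0202) and CGN by 0.50 (adjusted p = 0.00683). The ratio of CGN to CGNL1 was 5.36 and 4.80 in Parent, 4.71 and 4.50 in NC-1 and 17.1 and 17.5 in miR-4711-5p. This ratio, too, is taken within a library. In miR-4711-5p it divides by a CGNL1 level near 1 FPKM, the level of the filter.

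Of 15 tested polarity genes, 2 rose and 5 fell against Parent, and 2 rose and 3 fell against NC-1, and with equal sums the count against Parent was 7 higher and 3 lower. CDC42, the small GTPase that acts with the PAR complex, fell from 244 ± 7.05 FPKM in Parent and 247 ± 3.71 in NC-1 to 182 ± 2.43 in miR-4711-5p (log2 difference -0.42, limma adjusted p = 0.000259, and -0.44, adjusted p = 0.000247), in all 15 alternatives. LLGL1 and LLGL2, basolateral polarity proteins, fell against both, LLGL2 by 0.47 against Parent (adjusted p = 0.000512) and 0.23 against NC-1 (adjusted p = 0.0126), and LLGL1 by 0.24 (adjusted p = 0.0131) and 0.22 (adjusted p = 0.0209). CRB3, an apical determinant, rose by 0.36 (adjusted p = 0.0307) and 0.40 (adjusted p = 0.0218). Against Parent, 6 of 15 alternatives did not give the call of CRB3 (adjusted p up to 0.158) and 3 that of LLGL1 (up to 0.150), equal sums among them for LLGL1 (-0.12). Against NC-1, 3 of 15 did not give the call of LLGL2, 4 that of LLGL1, again with equal sums among them (-0.18), and 4 that of CRB3, whose difference was 0.24 without NC-1 replicate 1. LLGL2 was also lower in NC-1 than in Parent (-0.24, limma adjusted p = 0.0176), which 5 of 15 alternatives did not call.

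Of 21 tested regulators, 5 rose and 5 fell against Parent (8 and 2 with equal sums), and 6 rose and 5 fell against NC-1. SPINT1, an inhibitor of the matriptase protease, was at 153 and 155 FPKM in Parent, 158 and 169 in NC-1 and 200.01 and 194 in miR-4711-5p, with no overlap, and rose by 0.35 against Parent (limma adjusted p = 0.00108) and by 0.26 on comparison with NC-1 (adjusted p = 0.00422). ARHGEF2, a guanine nucleotide exchange factor that cingulin binds, fell by 0.37 (adjusted p = 0.00166) and 0.36 (adjusted p = 0.00219), from 37.5 ± 0.197 FPKM in Parent and 37.2 ± 2.36 in NC-1 to 28.8 ± 0.293. The calls of SPINT1 and ARHGEF2 held in all 15 alternatives. Of the transcription factors on the list, ELF3 fell by 0.59 (adjusted p = 0.000669) and 0.31 (adjusted p = 0.0120), and KLF4 rose by 0.54 (adjusted p = 0.000854) and 0.23 (adjusted p = 0.0311). Against NC-1, 2 and 4 of 15 alternatives did not give these calls. Both genes also moved the same way in NC-1 against Parent, ELF3 by -0.28 (limma adjusted p = 0.0272) and KLF4 by 0.30 (adjusted p = 0.0182). Of 15 alternatives, 6 and 2 did not give these last calls.

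Among 56 tested genes of the wider list, 8 (14.3%) had a seed site in the longest 3′ UTR. They included genes of both directions: AMOTL1, with 2 sites, CDC42 and ELF3 fell, and AMOTL2 and KLF4 rose. A 7mer-m8 site of each angiomotin-like gene is shown, with the same site letters in both (capitals, transcribed strand, GRCh37):
AMOTL1: gaacttataaaCTGATGCtcaataaatgt
AMOTL2: accactctttcCTGATGCtcaggaaagca

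The AMOTL1 site, found in 2 of 3 AMOTL1 transcripts, was at chr11:94609882-94609888 (plus strand). The AMOTL2 site, found in 1 of 10 AMOTL2 transcripts, was at chr3:134074237-134074243 (minus strand). The part of these sites in the changes was not tested.

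The other lateral junctions gave a different count. Of 12 tested adherens junction genes, 3 rose and 7 fell against Parent (median log2 difference -0.20) and 8 fell and none rose against NC-1 (median -0.26), with 5 higher and 4 lower against Parent and 3 higher and 7 lower against NC-1 when sums were equal. Of 11 tested desmosome genes, 1 rose and 10 fell against Parent (median -0.50) and 9 fell against NC-1 (median -0.41), with 9 and 8 lower at equal sums. Before sums were set equal, 18.7% of all tested genes were higher and 24.7% lower against Parent, and 18.4% and 21.2% against NC-1. In NC-1 against Parent, 4 adherens junction genes rose and none fell. In the same comparison 2 desmosome genes rose and 3 fell, beside 27.2% of all tested genes called. The difference between these lists and the tight junction genes was not tested.

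**Figure D4:**
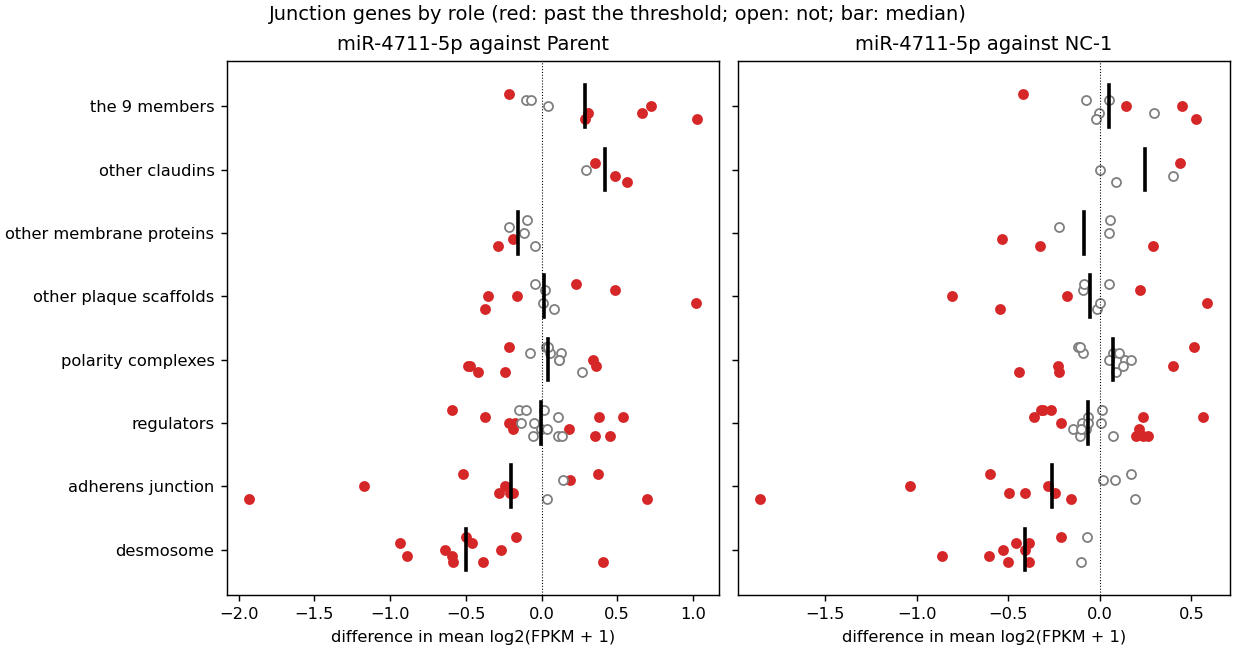
Difference in mean log2(FPKM + 1) for each tested junction gene, by role, in miR-4711-5p against Parent and against NC-1; red points passed the limma threshold, open points did not, and the bar is the median. The 9 tight junction genes have a median of 0.29 and 0.049 and the desmosome genes of -0.50 and -0.41; with equal sums of FPKM the medians were 0.44 and 0.10, and -0.37 and -0.36.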

How the data were processed

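Each of the 6 deposited files held FPKM per gene symbol, which the authors calculated from stranded mRNA libraries mapped to hg19. The submitters' processing notes name TopHat2 2.1.1, Bowtie2 2.3.5.1, SAMtools 1.2 and Cufflinks 2.2.1, and the paper names other versions of some of these and Cuffnorm. The annotation, strand option and normalisation option were not given in the sources used here, though the near-equal size factors put the values on a median-of-ratios scale. FPKM are not counts, and the depth behind each value is not known, so no count model was used.

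Genes averaging 1 FPKM or more across the 6 libraries entered the test, made on log2(FPKM + 1), a scale that understates changes of low genes, with limma 3.58.1 in R 4.3.3 (lmFit, contrasts.fit, and eBayes with its mean-variance trend). One fit held the 3 groups, with 3 residual and 4.15 prior degrees of freedom. Tests were two-sided with Benjamini-Hochberg adjustment at 0.05, and SE and intervals are from this fit. Fold values are ratios of mean FPKM without a pseudocount. With 2 libraries a group, exact permutation of a single gene's values allows no p below 0.333 and was not used.

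Symbols were matched to GENCODE transcripts on GRCh37, 10599 by the same and 592 by an older symbol, and 849 had no match. The miRNA sequence is from the RefSeq table (GRCh38.p14), and site letters were read from the GRCh37 genome with pysam 0.24.0. Figures were drawn with matplotlib 3.10.9.

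The members, gene lists and tests were chosen with earlier results of these data known. Named besides the 9 members are genes of the wider list called against both Parent and NC-1 in the same direction, ranked by their change against NC-1 (15 of 19, of which 1 is not reported here), and claudins with a mean of at least 10 FPKM. The alternatives were pseudocounts of 0.1 and 5, no filter, a mean of 5 FPKM, median-of-ratios rescaling, limma without a trend, only the 2 groups compared, a replicate block, each library left out, a 1.5-fold change required, any annotated 3′ UTR and, chosen after seeing the data, equal sums of FPKM. Scripts were tested on simulated data.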

Additional observations from a re-analysis of the deposited data

How the results depend on the processing

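Requiring a 1.5-fold change left 3, 0 and 0 of the 9 genes called by limma, for miR-4711-5p first against Parent, then against NC-1, and last for NC-1 against Parent (6, 4 and 7 without it), and 2, 2 and 1 of the wider list, beside 9.24%, 8.11% and 2.48% of all tested genes; where 0 were left, none of the 9 differed that far at any p. In NC-1 against Parent, 4 of the 9 were called without the filter on low values and 4 with only those groups in the fit. Leaving out each library gave 5 to 6, 3 to 4 and 3 to 5 of the 9 genes in these comparisons, and 18 to 27, 11 to 25 and 5 to 11 of the wider list, where 28, 25 and 16 were called with all libraries; a group left with 1 library is assumed to vary as the others do. Over all tested genes these fits called 3164 to 5135, 2815 to 4639 and 1355 to 2296, against 5230, 4763 and 3279 with all libraries, and 2165 in NC-1 against Parent without the filter. Same-numbered libraries did not deviate together (correlations of 0.061, 0.003 and -0.0089 over 12040 genes), so the numbers do not pair them. With the replicate block 6, 3 and 6 of the 9 genes and 26, 25 and 16 of the wider list were called, beside 4983, 4564 and 2864 of all tested genes, and of 56 calls of named genes 4 were lost: TJP1 against NC-1, CLDN7 in NC-1 against Parent, and CXADR and CLDN9 against Parent. Equal sums of FPKM turned 7 uncalled differences of named genes: CLDN7 and TJP3 against Parent (0.038 and 0.042), CLDN1 (0.048) and MARVELD2 (0.028) against NC-1, and CRB3 (0.038), ARHGEF2 (0.071) and LLGL1 (0.057) in NC-1 against Parent. With each library left out, uncalled differences that changed sign ranged from -0.21 to 0.067 for TJP3 against Parent, from -0.041 to 0.029 for CLDN1 and from -0.086 to 0.042 for MARVELD2 against NC-1, and, in NC-1 against Parent, from -0.13 to 0.14 for TJP3, from -0.0095 to 0.049 for CDC42, from -0.21 to 0.12 for CRB3 and from -0.076 to 0.050 for ARHGEF2. The causes were not tested. With 2 libraries a group, the intervals above set the smallest difference that could be seen, and they are widest for the lowest genes, OCLN and TJP3.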
